A study of Homo sapiens with 3 samples.

Results

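The cells described here are cells of day 21 chambered cardiac organoids (CCOs) that carried RNA of cell division genes and little RNA of heart muscle genes. They were chosen by their counts of unique molecular identifiers (UMIs, each standing for 1 captured RNA molecule). A cell was kept when it had more than 2000 and fewer than 7500 detected genes and under 10% of its UMIs from the 13 mitochondrial genes. It was called cycling at 8 or more UMIs per 10000 from MKI67, TOP2A, CENPF, TPX2, NUSAP1 and UBE2C, and a non-myocyte at under 1% of UMIs from TNNT2, MYH6, MYL7 and TTN. The limits gave 106 cycling non-myocytes among 1946 kept day 21 cells, which is 5.45% (95% exact binomial interval 4.48 to 6.55). Of these, 78 had at least 0.2% of UMIs from COL1A1, COL1A2 and COL3A1, and they were set beside 811 non-cycling day 21 cells at the same collagen limit, called non-cycling stroma here. All intervals here cover counting error only.

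The CCOs were grown from H7, a human embryonic stem cell line, by turning WNT signalling up with CHIR99021 and then down with IWP-2. Aggregates were embedded in Matrigel and kept in cardio-sphere growth medium, which holds thrombin, cardiotrophin-1, EGF, FGF-2, Wnt-3A and EDN1, until day 14, and then in RPMI-1640 with B27 in a spinner flask. Whole organoids were dissociated with TrypLE and made into droplet libraries that count RNA 3′ ends. D8, D14 and D21 each had 1 library and no replicate, so a difference between days cannot be told apart from a difference between libraries, no test over samples was possible, and no p-value is given.

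A cell that commits to division copies its DNA in S phase, checks and condenses the chromosomes in G2, and separates them in mitosis. Cyclin-dependent kinases drive each step, with cyclin E and cyclin A in S phase and cyclin B in mitosis, while the D-type cyclins act on the decision to enter the cycle and the CDK inhibitors restrain it. RNA of replication genes peaks in S phase and RNA of mitotic genes peaks in G2 and mitosis. In the heart, fibroblasts and other stromal cells are known to keep dividing after cardiomyocytes have largely stopped.

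The promoters of mitotic genes carry short motifs, shown here in 3 of the 10 genes with the largest ratios below, chosen because a CHR lies within the 100 bases shown, and in 2 replication genes with E2F matches there. The cell cycle genes homology region (CHR, TTTGAA) is a site of the DREAM and MuvB complexes, the CCAAT box (CCAAT) is a site of NF-Y, and E2F sites are known from replication genes. The E2F forms searched were TTGGCGC and its variant TTCCCGC, besides TTGCCGC, and with these also TTCGCGC. Capitals mark these letters on either strand in the 100 bases before the start of each gene, from RefSeq on GRCh38.p14, 5′ to 3′ along the gene's strand. In MCM6, adjoining E2F matches overlap and form 1 run of capitals.
CDC20: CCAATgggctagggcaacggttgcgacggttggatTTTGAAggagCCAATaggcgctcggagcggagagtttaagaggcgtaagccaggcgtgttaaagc
PLK1: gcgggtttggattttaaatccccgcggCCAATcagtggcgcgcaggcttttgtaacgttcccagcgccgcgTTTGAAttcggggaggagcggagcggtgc
CENPA: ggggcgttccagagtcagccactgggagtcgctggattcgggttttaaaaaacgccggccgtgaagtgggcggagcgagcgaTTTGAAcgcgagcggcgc
PCNA: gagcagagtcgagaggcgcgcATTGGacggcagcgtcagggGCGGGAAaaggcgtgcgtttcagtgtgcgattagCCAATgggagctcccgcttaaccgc
MCM6: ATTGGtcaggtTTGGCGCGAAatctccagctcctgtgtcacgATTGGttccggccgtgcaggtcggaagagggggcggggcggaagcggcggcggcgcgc

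The CDC20 stretch is chr1:43358881-43358980 on the plus strand, that of PLK1 is chr16:23678789-23678888 on the plus strand, and that of CENPA is chr2:26785956-26786055 on the plus strand. The PCNA stretch is chr20:5126623-5126722 and that of MCM6 is chr2:135876444-135876543, both on the minus strand. A CHR begins 65 bases before the start in CDC20, 29 bases before it in PLK1 and 18 bases before it in CENPA. No CHR stood in the stretches shown for PCNA and MCM6.

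The 106 cells had 6860 to 54173 UMIs, with a median of 16941, and 2145 to 6459 detected genes, with a median of 4184. The collagen-positive cycling cells had a median of 16978.5 UMIs against 13187 in non-cycling stroma. Mitochondrial UMIs were 1.88% to 9.24% of the cycling cells' UMIs. Scrublet, a doublet caller, marked 6 of the 1946 cells and none of the 106, and no cell was removed as a doublet. Of the 106 barcodes, 1 also occurred among kept D14 cells. In all, 10 barcodes were shared by kept cells of D14 and D21, 9 by D8 and D21 and 14 by D8 and D14.

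The limits cut through a long tail on the side of the cycling genes and through a gap on the side of the myocyte genes. Of 1306 kept non-myocytes of day 21, 874 had no UMI of the 6 cycling genes and 22 had between 4 and 8 per 10000. The cycling cells nearest the limit had 8.65, 9.07 and 9.15 UMIs per 10000, and the cells just outside had 7.48, 7.48 and 7.23. The 106 cells had a median of 24.3 and a highest value of 84.1. The highest myocyte values among the 106 were 0.842%, 0.469% and 0.317%, whereas the lowest values of cycling cells on the other side were 1.41%, 1.52% and 1.64%. The collagen limit fell in a dense range, with 0.207% the lowest value inside it and 0.1999% the highest outside it.

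**Figure D1:**
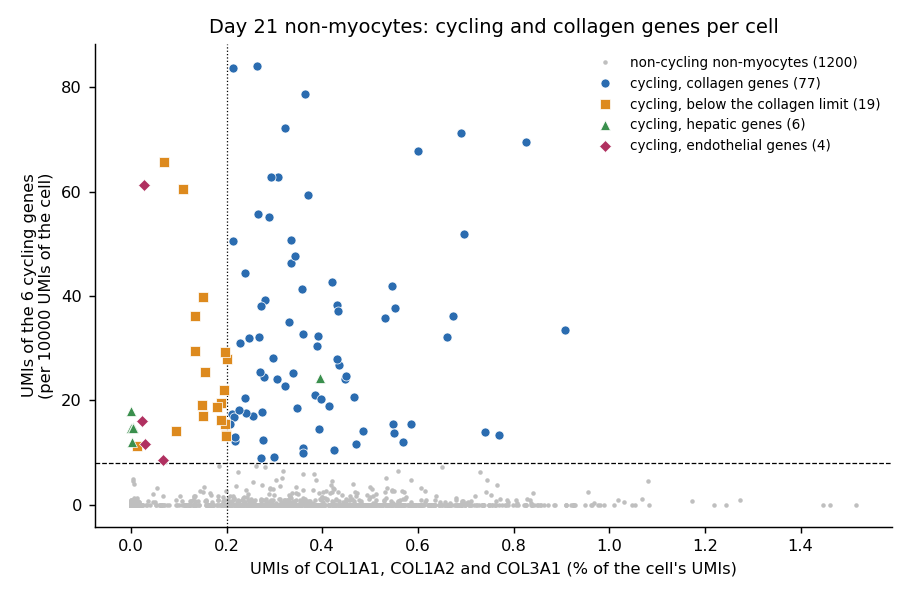
Each point is 1 of the 1306 kept day 21 non-myocytes, with the share of its UMIs from 3 collagen genes on the x axis and its UMIs of the 6 cycling genes per 10000 on the y axis. The dashed and dotted lines are the cycling and collagen limits, and 78 of the 106 cells above the dashed line sit at or right of the dotted line.

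The name cycling non-myocyte follows from the limits that chose the 106 cells, and they were not 1 kind of cell. Apart from 77 cells at the collagen limit, 6 cells had at least 1% of UMIs from hepatic genes, 4 cells had at least 3 of 6 endothelial genes, and 19 cells lay below the collagen limit with neither. The 6 cells with hepatic genes, 1 of them also at the collagen limit, had AFP, the fetal plasma protein, at 13480.7 CPM (counts per 1000000 UMIs), EPCAM, an epithelial adhesion molecule, at 404 CPM, and no DCN or PDGFRA UMI. Their median of 35683.5 UMIs was above that of any other class. In the 4 cells with endothelial genes, CDH5, the endothelial cadherin, was at 97.4 CPM and KDR, a VEGF receptor, at 227 CPM. In the 77 cells CDH5 and CDH1, the epithelial cadherin, had no UMI, whereas KDR was at 32.5 CPM and EPCAM at 6.50 CPM. KDR had a UMI in 16 of the 77 cells and EPCAM in 9. The endothelial genes ECSCR and ESAM had a UMI in 4 and 1 of them.

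The 19 remaining cells carried stromal genes at lower levels. Their collagen share ran from 0.0118% to 0.1999% with a median of 0.154%. C7, a complement component, was at 757 CPM and PDGFRB, a PDGF receptor, at 82.4 CPM, against 1008 and 143 CPM in the 77 cells. EPCAM had a UMI in 4 of the 19 cells.

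The share of cells that cycled differed among these classes. Among non-myocytes with collagen genes 9.19% cycled (interval 7.32 to 11.3 of 838 cells), and among those with hepatic genes 2.01% cycled (0.742 to 4.33 of 298 cells), so these intervals did not overlap. Among the 39 cells with endothelial genes 10.3% cycled, with an interval of 2.87 to 24.2. Among the 131 cells of the remaining class 14.5% cycled, with an interval of 8.96 to 21.7 that overlapped those of the collagen-gene and endothelial-gene cells but not that of the hepatic-gene cells. The endothelial-gene interval overlapped all the others. Because the limits scale with a cell's UMIs and the hepatic-gene cells were deeper, the part of depth in this difference was not tested.

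The genes of cell division were higher in the 78 collagen-positive cycling cells than in non-cycling stroma. Sums of UMIs over the cells were expressed as CPM and compared as log2 ratios with 5 CPM added to each side. The UMIs count 3′ ends, so levels were not divided by gene length. Of 6055 genes at 20 CPM or more in either group, 364 were at least 2-fold higher, 6.01% of those tested, and 59 were at least 2-fold lower, 0.974%. The median log2 ratio of all genes tested was 0.03. Since the cells were chosen by 6 division genes, the higher division genes are a description of the chosen cells. The 6 choosing genes themselves had a median log2 ratio of 5.39.

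The steepest ratios belonged to division genes. Leaving out the 6 choosing genes, whose ratios the choice of cells sets, 18 of the 22 genes at least 16-fold higher were on the lists of division genes, as were 65 of the 75 at least 8-fold higher and 142 of the 358 at least 2-fold higher. The 10 genes with the largest ratios were CDC20, ASPM, CCNA2, PLK1, CDK1, CENPA, AURKB, CCNB1, FAM64A and DLGAP5, likewise without the choosing genes.

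CDC20, which activates the anaphase-promoting complex, was at 228 CPM in the cycling cells and 3.81 CPM in non-cycling stroma, a 59.8-fold ratio (interval 43.5 to 83.9). Per cell its level ran from 0 to 10.1 UMIs per 10000 with a median of 0.977, and 62 of the 78 cells had a UMI, against 39 of 811. PLK1, the polo-like kinase of mitotic entry, was at 148 against 1.39 CPM, a 107-fold ratio (64.1 to 190.1). The 2 groups overlapped at 0 for both genes, since 30 cycling cells had no PLK1 UMI.

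CDK1, the kinase that triggers mitosis, was at 351 against 10.2 CPM, a 34.4-fold ratio (28.1 to 42.4). It had a UMI in 68 of the 78 cells, with a median of 2.87 and a highest value of 12.6 UMIs per 10000. Its cyclin partners CCNA2 and CCNB1 were at 202 and 285 CPM, against 3.55 and 8.14 CPM. When every cell was thinned to 4000 UMIs, 62.8% of the cycling cells and 2.71% of non-cycling stroma had a CDK1 UMI, against 87.2% and 8.14% unthinned. Non-cycling cardiomyocyte-gene cells had a CDK1 UMI in 2.70% of thinned cells, and the source of these UMIs was not tested.

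In the list of G2/M regulators 29 of 30 genes at level were at least 2-fold higher, none was lower, and the median log2 ratio was 3.20. The exception was FZR1, a second activator of the anaphase-promoting complex that acts late in mitosis and in G1, with a log2 ratio of 0.98. FOXM1 and MYBL2, transcription factors of the mitotic genes, were at 76.4 and 99.2 CPM against 2.08 and 7.19 CPM. PTTG1, the securin that restrains the separation of sister chromatids, had the highest level in the list at 625 CPM, against 32.5 CPM. CKS1B, a small CDK-binding subunit, was at 617 against 69.5 CPM, so that its ratio of 8.87 was smaller although its level was close to that of PTTG1.

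The lists for the mitotic apparatus were called almost throughout. All 23 kinetochore and centromere genes at level were higher, with a median log2 ratio of 3.12. CENPA, the histone of the centromere, was at 141 against 1.30 CPM. CENPW, another centromere protein, was above CENPA in both groups, at 417 CPM in the cycling cells against 53.5 CPM in non-cycling stroma. All 31 spindle and cytokinesis genes were higher, with a median of 3.25. ASPM, a spindle pole protein, was at 233 against 4.33 CPM, and ANLN, a scaffold of the contractile ring, at 89.2 against 3.46 CPM.

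The condensin and cohesin list had 10 of 12 genes higher and a median of 2.06. SMC4, a condensin subunit, was at 475 against 46.9 CPM, whereas SMC3, a cohesin subunit that cells also use between divisions, had a log2 ratio of 0.94. The tubulin TUBA1B had a UMI in every cycling cell, from 5.40 to 118 UMIs per 10000 with a median of 48.9. In non-cycling stroma it ran from 0 to 82.0 with a median of 12.6, so the groups overlapped.

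**Figure D2:**
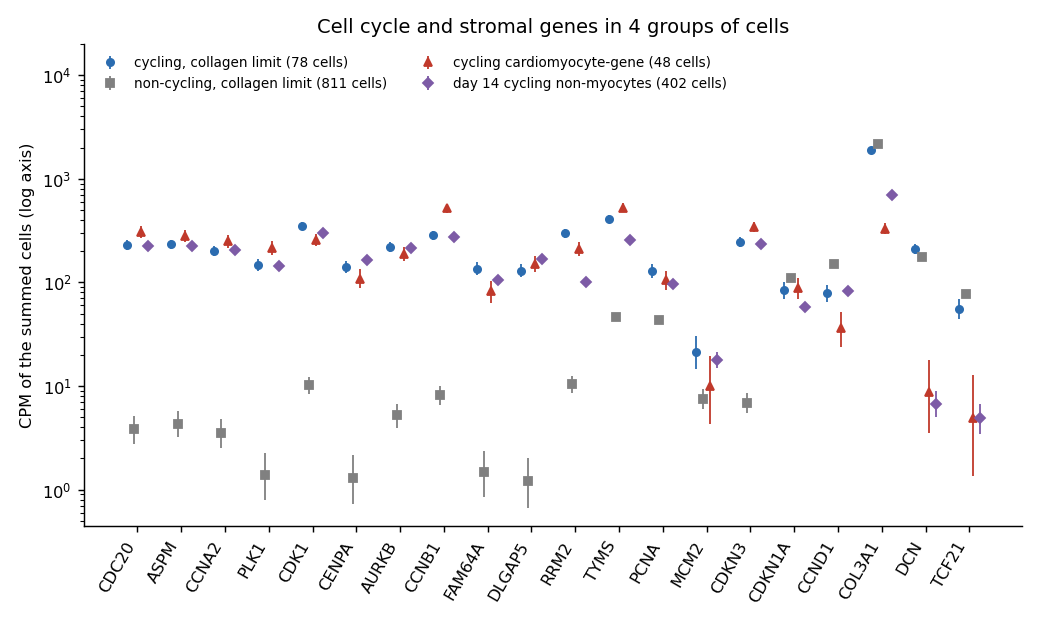
CPM of 20 genes, on a log axis, in 4 groups of cells, where bars are 95% exact Poisson intervals of the summed UMIs. The 10 division genes at the left sit at 130 to 351 CPM in the cycling cells and at 1.21 to 10.2 CPM in non-cycling stroma. COL3A1 and DCN each lie close together in these groups, and COL3A1 is a gene of the collagen limit that both groups had to meet.

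Replication genes were higher too, by smaller ratios. In the S phase and replication list 29 of 35 genes were at least 2-fold higher, with a median log2 ratio of 1.55. RRM2, a subunit of ribonucleotide reductase, stood apart at 298 against 10.4 CPM, a log2 ratio of 4.30. TYMS, which makes thymidylate, was at 411 against 45.9 CPM, and PCNA, the sliding clamp of DNA polymerase, at 129 against 43.3 CPM. The helicase subunits MCM3, MCM5 and MCM6 missed the 2-fold limit, with log2 ratios of 0.70, 0.43 and 0.60. The G1 cyclins CCNE1 and CCNE2 were low in both groups, at 12.1 and 7.85 CPM in the cycling cells and 9.26 and 3.03 CPM in non-cycling stroma.

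The 6 choosing genes peak in G2 and mitosis, so cells in S phase can lie on either side of the limit. Over the 44 S phase genes in the table, the 106 cells had 1.25 to 87.6 UMIs per 10000 with a median of 24.6. Over 81 genes of the G2/M, kinetochore and spindle lists together, without tubulins and KPNA2 and with none of the choosing genes, they had 33.9 to 244 with a median of 81.7. In 97 of the 106 cells (91.5%, interval 84.5 to 96.0) the G2/M sum was above the S sum. The choosing genes peak with the G2/M list and the lists differ in size, so this share largely follows from the choice. It was 95.5% in the cycling non-myocytes of D14 and 46.0% in non-cycling stroma. Across the 106 cells Spearman's rho of the 2 sums was -0.43. The points share a library, and the same depth divides both sums. On the other side of the limit, 60 of 1200 non-cycling non-myocytes were at or above the cycling cells' median S sum, and 52 of them were in the non-cycling stroma, which therefore held cells with replication genes.

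**Figure D3:**
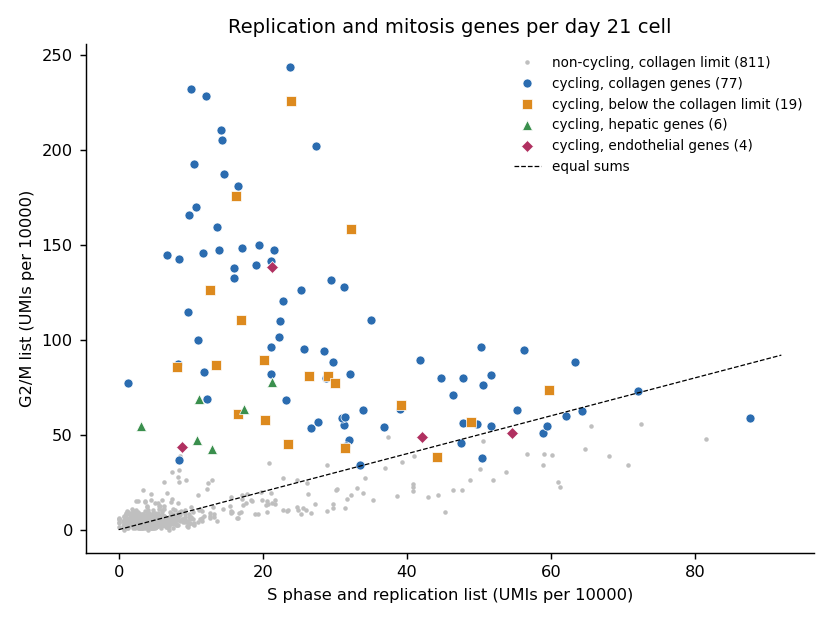
Each point is 1 day 21 cell, with its UMIs of the S phase and replication list per 10000 on the x axis and of the G2/M list on the y axis, and grey points are the 811 cells of non-cycling stroma. Of the 106 cycling cells, 97 sit above the dashed line of equal sums, and a tail of grey points runs to the right below it.

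The 9 cells in which the S sum was not below the G2/M sum differed from the 97 others in the genes that define the phases, as the split itself sets. PCNA was at 456 CPM in the 9 cells and 82.99 CPM in the 97. CCNB1 was at 59.2 and 290.5 CPM, and PLK1 at 17.8 and 144 CPM. RRM2 was at 320 and 247 CPM, so it was high on both sides of the split. COL3A1, which took no part in it, was at 1374 and 1530 CPM.

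Single cells often carried both kinds of RNA. RRM2 and PLK1 both had a UMI in 58 of the 106 cells, RRM2 without PLK1 occurred in 38, PLK1 without RRM2 in 6 and neither in 4. A cell without a UMI may still hold the RNA at these depths.

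Histone genes separated by type. Of 22 histone and chromatin genes 20 were higher and 2 were lower, with a median log2 ratio of 1.96. HIST1H4C, a histone whose RNA is made in S phase, was at 3012 against 198 CPM, and its level per cell ran from 0 to 87.5 UMIs per 10000 with a median of 32.3. The linker histone HIST1H1A was at 149 against 6.67 CPM. H2AFZ, the variant H2A.Z, and the chromatin protein HMGB2 were at 2543 and 936 CPM against 501 and 56.3 CPM. The 2 lower genes were HIST1H2BK, at 25.7 against 89.2 CPM, and HIST1H2AC, at 5.71 against 20.8 CPM, core histones known to give polyadenylated RNA outside S phase. Near-identical histone genes can share reads, so single histone levels are uncertain.

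CDK inhibitors and D-type cyclins were mixed. Of 22 genes at level 4 were higher, none was lower and the median log2 ratio was -0.14. CDKN3, a phosphatase that acts on CDK1 and CDK2, had the largest ratio on the CPM + 5 scale, at 245 against 6.93 CPM. CDKN2C, the p18 inhibitor of CDK4 and CDK6, was at 32.8 against 0.433 CPM, the latter from 5 UMIs, a 75.8-fold ratio with an interval of 30.3 to 245. After thinning 8.97% of cycling cells had a CDKN2C UMI, against 28.2% unthinned. CDKN2D and CDKN1B, the p19 and p27 inhibitors, were at 56.4 and 49.97 CPM against 15.8 and 18.2 CPM.

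Other inhibitors did not pass the limit. CDKN1A, the p21 inhibitor, was at 84.2 against 111 CPM and CDKN1C, the p57 inhibitor, at 57.8 against 79.9 CPM. CCND1 and CCND2, the D-type cyclins, were at 78.5 and 63.5 CPM against 149 and 115 CPM, 1.90-fold and 1.81-fold lower, just short of the limit. Their kinase CDK4 was at 293 against 202 CPM. In the MAX network, MXD3, a MYC antagonist known from S phase, was at 116 against 2.77 CPM, whereas its relative MXD4 was at 34.3 against 78.8 CPM and MYC itself at 8.57 against 22.1 CPM. MXD3, MXD4 and MYC were named after their values were seen.

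The share of promoters with a CHR or a CCAAT box was larger in the groups of genes with larger ratios. Promoters are the 250 bases before and 50 bases after the RefSeq start, and 5091 of the 6055 tested genes matched 1. A CHR on either strand was in 10.2% of the tested genes' promoters, and, without the 6 choosing genes, in 32.2% of those at least 2-fold higher, in 53.0% at 4-fold and in 71.4% at 16-fold, where 21 of 22 genes matched. The ratios come from the contrast that chose the cells. It was in 15.4% of all 27305 RefSeq promoters and in 13.2% of the promoters of lower genes. A CCAAT box was in 37.8% of the tested promoters and in 60.2%, 67.4% and 90.5% at these limits.

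The lists differed by motif. A CHR was in 70.0% of the spindle list's promoters, 13 of the 26 matched promoters of G2/M regulators, 42.9% of kinetochore genes and 2.50% of the S phase list. An E2F match was in 70.0% of the S phase list's promoters, 47.6% of kinetochore genes, 26.9% of G2/M regulators and 23.3% of the spindle list. It was in 21.9% of the tested genes and, without the choosing genes, in 37.2% of those at least 2-fold higher. A match is a run of letters and was not tested as a site.

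Of the collagen and matrix genes few passed the 2-fold limit, as was so of all genes tested, and both groups had been chosen at the same collagen limit. None of 12 collagen genes outside the choosing set passed 2-fold either way, with a median log2 ratio of -0.09, and the background of 6.01% higher and 0.974% lower is itself under 1 gene in 12. In the list of matrix and secreted genes none of 31 was higher and 1, IGFBP5, was lower, with a median of -0.24. LUM and DCN, small proteoglycans that bind collagen, were at 575 and 210 CPM against 507 and 178 CPM. Per cell LUM ran from 0 to 49.1 UMIs per 10000 with a median of 2.51, against 0 to 55.6 with a median of 2.17, so the groups overlapped over nearly their whole range. MGP, an inhibitor of calcification, was at 1341 against 1455 CPM and C7 at 1021 against 1287 CPM.

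DLK1, a membrane protein of fetal mesenchyme, was the most abundant gene of the list at 4172 against 3893 CPM. PTN, a heparin-binding growth factor, was at 802 against 515 CPM, a log2 ratio of 0.63. IGFBP5 and IGFBP3, which bind IGFs, were at 121 and 229 CPM against 284 and 404 CPM, and only the IGFBP5 ratio was past 2-fold. After thinning 55.1% of the cycling cells and 57.6% of non-cycling stroma had a LUM UMI, and 9.12% of non-cycling cardiomyocyte-gene cells did, against 88.5%, 75.1% and 20.4% unthinned.

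Transcription factors, receptors and ligands had few calls, which at these list sizes is near the background of 6.01% and 0.974% and is given as values only. None of 23 factors was called, with a median of -0.06. TCF21, a factor of cardiac fibroblast precursors, was at 55.7 against 76.5 CPM, and GATA4 and HAND2, factors of the heart mesoderm, were at 102 and 153 CPM against 111 and 138 CPM. None of 20 receptors was called. PDGFRA and PDGFRB, the PDGF receptors, were at 65.0 and 141 CPM against 59.9 and 156 CPM, and FGFR1 was at 113 against 90.7 CPM. Of 11 ligands at level 1 was lower, TGFB2, at 22.1 against 50.6 CPM, and the median was -0.41. HGF and the chemokine CXCL12 were at 118 and 490 CPM against 126 and 483 CPM. IGF1, below the level of 20 CPM, had no UMI in the cycling cells and was at 7.27 CPM in non-cycling stroma, at least 3.40-fold lower at the floor of 3 UMIs in the summed cycling cells.

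**Figure D4:**
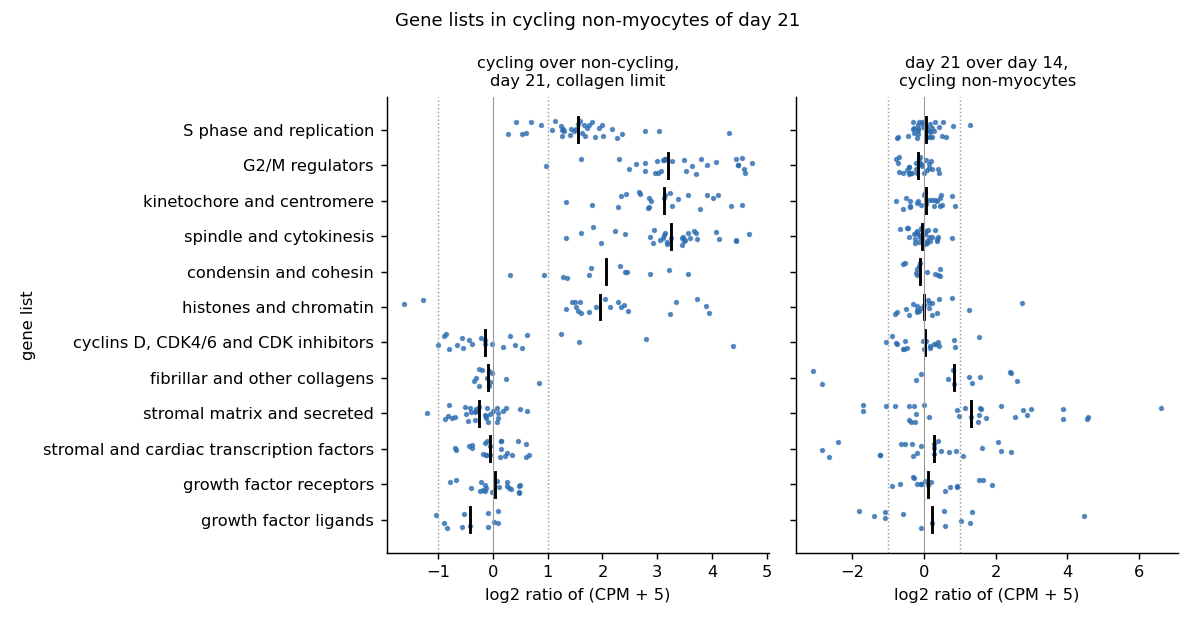
Each point is 1 gene at 20 CPM or more in the higher group, placed by its log2 ratio of CPM + 5, with the list median as a black bar and dotted lines at 2-fold. At the left the 6 division lists have medians from 1.55 to 3.25 and the stromal lists from -0.41 to 0.04, and at the right, between days, the division lists have medians from -0.18 to 0.06.

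The 59 lower genes were of more than 1 kind, and the non-cycling stroma had no upper limit on myocyte genes. Of the 59, 30 were also at least 2-fold higher in non-cycling cardiomyocyte-gene cells than in stroma, such as LDB3 and NEBL, proteins of the Z-disc, at 13.6 and 18.6 CPM against 51.3 and 57.8 CPM. A further 7 were 2-fold higher in hepatic-gene cells, such as SERPINA1, a plasma protease inhibitor, at 162 against 445 CPM. The 10 lowest by the naming rule were PRSS1, CDC42EP3, HIST1H2BK, LDB3, SERPINA1, NEBL, HSPB7, SNHG8, AGT and TECRL. Without the 38 stroma cells at 1% or more of myocyte UMIs and a further 10 at 1% or more of hepatic UMIs, a comparison added after seeing the data, 33 genes were lower among 6003 tested, and 30 of the 59 were still 2-fold lower.

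The other 22 of the 59 genes were not 2-fold higher in those cells, and all 22 were still 2-fold lower without them. They are named here after their values were seen. CRHBP, which binds corticotropin-releasing hormone, had the largest ratio at 2.14 against 30.8 CPM, a log2 ratio of -2.33. ASPN, a matrix proteoglycan, was at 13.6 against 42.3 CPM, ACTG2, an enteric-type smooth muscle actin, at 5.71 against 22.9 CPM, and CCBE1, a secreted factor of lymphatic growth, at 6.42 against 23.8 CPM. FOS, an immediate early factor that also responds to dissociation, was at 108 against 232 CPM, while JUN was at 106 against 125 CPM and EGR1 at 174 against 209 CPM.

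The markers of other cell types ranged from near 0 to over 1000 CPM in the collagen-positive cycling cells. None of 6 epicardial genes reached 20 CPM, and together they summed to 12.1 CPM against 20.8 CPM in non-cycling stroma. These 6 leave out the epicardial markers WT1 and TBX18. In the 77 cells of the collagen class WT1 was at 15.2 CPM, with a UMI in 13 cells, and TBX18 at 7.23 CPM, in 9 cells. Blood and immune genes summed to 1.43 CPM over 6 genes, and of 6 neural genes only STMN2, a neuronal tubulin-binding protein, had a UMI, at 129 against 159 CPM. Of 5 pluripotency genes DNMT3B, a DNA methyltransferase, was highest at 9.28 against 1.13 CPM. The 9 endothelial genes summed to 349 against 360 CPM, of which EGFL7, a secreted endothelial protein, was at 283 CPM while CDH5 had no UMI. The 7 epithelial genes summed to 857 against 985 CPM and the 5 smooth muscle genes to 1070 against 1213 CPM, mostly from the keratins KRT8 and KRT18 and from the actin ACTA2. The 5 myocyte genes outside the choosing set summed to 1001 against 2008 CPM. Only the cycling cells had a myocyte limit, so this difference is not independent of the choice. The 2 of them called lower, ACTC1 and ACTN2, had log2 ratios of -1.12 and -1.04. Without the stroma cells rich in myocyte or hepatic genes these were -0.40 and -0.47. The 4 choosing myocyte genes summed to 1450 against 3264 CPM, an order that the limits set, since non-cycling stroma had none on these genes. Hepatic genes summed to 1453 against 2436 CPM, over all 10 genes of the list. ALB, the plasma protein of hepatocytes, had a UMI in 64.1% of thinned cycling cells, 71.3% of non-cycling stroma and 71.1% of non-cycling cardiomyocyte-gene cells, so its share was alike in classes that should lack it.

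Taking all 106 cells in place of the 78 gave 372 genes at least 2-fold higher of 6043 (6.16%) and 45 lower (0.745%), with a median log2 ratio of 0.00. The hepatic list was then higher for 10 of 10 genes, with a median of 1.81, against none of 10 in the 78 cells, where the median was -0.63. AFP was at 1573 CPM over the 106 cells and 115 CPM over the 78. Of the 28 cells that only the larger group holds, 5 were cells with hepatic genes.

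The 48 cycling cells with myocyte genes at or above 1% give a second view of division in the same library. CDK1 was at 258 CPM there and 288 CPM in the 106 non-myocytes, and PLK1 at 216 and 134 CPM. PTTG1 was at 1219 and 605 CPM, and CCNB1 at 520 and 271 CPM. RRM2 was at 209 and 253 CPM. DLK1 was at 372 and 3358 CPM, and C7 at 147 and 846 CPM. Both groups passed the same cycling limit and were parted by the myocyte limit. Division genes in both groups and unlike lineage genes therefore follow from the choice. Single division genes still differed in level, as PTTG1 and CCNB1 did. HIST1H4C had a median of 2.99 UMIs per 10000 in the 48 cells and 31.0 in the 106.

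The cycling non-myocytes of D14 and D21 were chosen by the same limit on division genes, so like levels of such genes on both days follow from the choice and are given as a description. At D14, 402 of 3585 kept cells were cycling non-myocytes, which is 11.2%, and 83 of the 402 reached the collagen limit. Among cells at the collagen limit, 8.77% cycled at D21 (interval 6.997 to 10.8 of 889) and 9.69% at D14 (7.79 to 11.9 of 857), so the intervals overlapped. Of 6494 genes tested, 311 were at least 2-fold higher at D21 (4.79%) and 365 lower (5.62%), with a median log2 ratio of -0.10.

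None of 30 G2/M regulators, 23 kinetochore genes, 31 spindle genes or 12 condensin and cohesin genes was called between the days. CDK1 was at 288 CPM at D21 and 297.5 CPM at D14. Among 35 replication genes 1 was called, RRM2, at 253 against 101 CPM. Among histone genes HIST1H1A was at 142 against 17.3 CPM, an 8.20-fold ratio (6.64 to 10.2), and HIST1H2BK at 30.9 against 9.96 CPM. CDKN2C was at 29.4 against 6.91 CPM, and CDK6, a kinase partner of the D cyclins, was 2.18-fold lower at 50.6 against 110 CPM.

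The stromal genes were much higher at D21. Of 31 matrix and secreted genes 17 were higher and 3 lower, with a median of 1.32. C7 was at 846 against 3.72 CPM, a 227-fold ratio (157 to 343.5), LUM at 439 against 13.9 CPM and MGP at 997 against 36.9 CPM. HGF, a growth factor of mesenchyme, was at 111 against 0.266 CPM, the latter from 2 UMIs, a ratio of 419 with an interval of 115 to 3481. The same held among cells at the collagen limit, where C7 was at 1021 against 9.10 CPM in cycling cells and 1287 against 13.8 CPM in non-cycling cells.

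The stromal and cardiac transcription factors went both ways. Of 23 factors 5 were higher and 5 lower at D21, with a median log2 ratio of 0.27, against -0.10 for all genes tested. ISL1, a factor of the second heart field, was at 16.2 against 148 CPM, NKX2-5, an early cardiac factor, at 34.9 against 247 CPM and HAND1, another factor of early heart mesoderm, at 35.4 against 210.1 CPM. TCF21 was higher, at 48.1 against 4.92 CPM. In non-cycling stroma ISL1 was at 14.2 against 163 CPM and TCF21 at 76.5 against 3.30 CPM, so the cycling and non-cycling cells had the same order of the days.

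Genes outside the lists that were lower at D21 included HMGA1, a chromatin protein of proliferating and embryonic cells, at 69.3 against 711 CPM, and PRTG, a neural and mesodermal adhesion protein, at 8.10 against 160.2 CPM. PSMB9, an immunoproteasome subunit, was at 2.02 against 98.5 CPM and TAP1, a peptide transporter, at 2.53 against 62.6 CPM. HLA-B, named after its values were seen, was at 59.2 against 497 CPM. NPY had no UMI at D21 and was at 110.3 CPM at D14, at least 72.7-fold lower at the floor of 3 UMIs. MIR205HG, also without a UMI, was at 61.8 CPM at D14, and TPPP3 and WFDC2, genes known from epithelia, were at 0.506 and 8.10 CPM against 70.5 and 161 CPM. Of the 8 genes with the largest ratio at D21 by the naming rule, ALB, AFP, SERPINA1, AHSG, APOC3, AMBP and APOA2 are hepatic genes, and the other was C7. Without the hepatic-gene cells of both days, a comparison added after seeing the data, 309 genes were higher and 377 lower among 6490 tested.

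With the collagen limit applied to the cells of both days, a comparison added after seeing the data, 269 genes were higher and 508 lower among 6670 tested. DLK1 was 5.82-fold higher (5.44 to 6.22) in this comparison and 5.81-fold higher in the comparison of all cycling non-myocytes. HMGA1 was at 46.4 CPM in the 78 cells of D21 and 612 CPM in the 83 of D14, and in non-cycling stroma at 30.2 and 329 CPM.

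**Figure D5:**
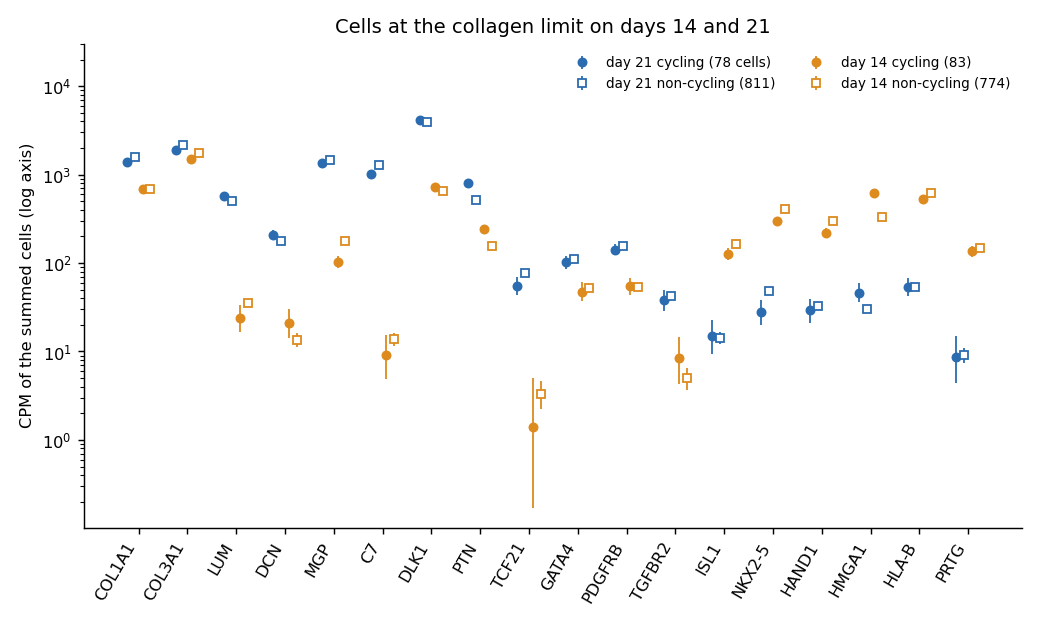
CPM of 18 genes, on a log axis, in cycling and non-cycling cells at the collagen limit of D14 and D21, with 95% exact Poisson intervals. LUM, DCN, MGP, C7 and TCF21 are higher and ISL1, NKX2-5, HAND1, HMGA1, HLA-B and PRTG lower at D21 in cycling and non-cycling cells alike.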

How the data were processed

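For all 3 libraries, 1 table deposited by the authors holds unnormalized UMI counts, checked to be whole numbers, for 32738 genes and 17327 barcodes, of which 9149 were from D21. The submitters' processing notes name Cell Ranger, Seurat 3.2.1 and hg19. The day of a barcode was read from the ending of its name. UMIs were summed over the cells of a group, with no other normalization than CPM, and compared on the scale of log2(CPM + 5) among genes at 20 CPM or more in the higher group. CPM have exact Poisson intervals, shares exact Clopper-Pearson intervals, and ratios intervals from the split of the summed UMIs, all at 95%. A summed group at 0 was given a floor of 3 UMIs.

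Named genes are those of the lists, and the 10 largest ratios each way between collagen-positive cycling cells and non-cycling stroma and the 8 each way between days, among genes at 50 CPM or more with a UMI in at least 10% of the higher group's cells, leaving out the choosing and mitochondrial genes. The cells and lists were chosen with earlier results of these data known. The hepatic limit of 1%, the limit of 3 of 6 endothelial genes (CDH5, ESAM, PLVAP, ECSCR, CLDN5, TIE1) and the E2F letters were set after seeing the data. UHRF1, in the replication list, was not analysed here. Alternatives covered the limits on cells, the CPM added, the level, the scaling and the make-up of the non-cycling stroma.

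Shares were taken after thinning cells to 4000 UMIs with a fixed seed. Python 3.11.15 with numpy 2.4.6, scipy 1.17.1, scanpy 1.11.5 for Scrublet and matplotlib 3.10.9 was used, and ratios and intervals were tested on simulated data.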

Additional observations from a re-analysis of the deposited data

Results flagged for a closer look

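Barcodes outside the comparisons also met the limits on cycling and myocyte genes. Among 1982 day 21 barcodes that were at or above 10% mitochondrial UMIs and within the limits on genes, 3 met the limits on cycling and myocyte genes, which is 0.151% (interval 0.0312 to 0.442). Among 5221 day 21 barcodes with 2000 genes or fewer, 91 met these limits and the mitochondrial limit, which is 1.74% (1.41 to 2.14). In a barcode with few UMIs, a small count of the choosing genes meets the cycling limit. Whether these barcodes were dividing cells was not tested. At D8, 14.3% of kept cells were cycling non-myocytes, 381 of 2657, and the highest share of collagen UMIs among them was 0.175%, below the collagen limit.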

How the results depend on the processing

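With 1 library per day no replicate could be left out. No paired analysis was possible because each day has a single library. The share of cycling non-myocytes, 5.45% of D21 cells, was 8.60% at a mitochondrial limit of 5%, 3.03% at 20%, 6.58% at a cycling limit of 4 per 10000 and 3.96% at 16. At these cycling limits 84.4% and 97.4% of the cells had more G2/M than S UMIs. The share at the collagen limit was 88.7% at 0.1% and 26.4% at 0.4%. The 59 genes lower than in stroma became 38 when stroma was also under 1% myocyte genes, 33 when it was also under 1% hepatic genes, 102 with 1 CPM added, 114 with no limit on level and 39 at a mitochondrial limit of 5%. For all 106 cells the 45 lower genes became 29, 75, 70 and 28 under the planned settings in the same order. Between days, no limit on level gave 483 higher and 652 lower genes. The share of called genes that were higher was 46.0% in the main comparison of days and 34.6% at the collagen limit in both days, and with ratios centred on their median it was 54.3%, with 356 genes higher and 300 lower, which turned the balance. PRSS1, lower in the main comparison, had a log2 ratio of 0.072 without stroma cells rich in myocyte or hepatic genes, and a log2 ratio of -0.027 without cells over 30000 UMIs. Of 232 values of single genes, 200 moved by no more than the distance from the middle of their interval to its end. With 1 CPM added PLK1 moved further than that, from a log2 ratio of 4.58 to 5.96. The others of the 10 named higher genes also moved further at this setting. Of 77 other values, 58 stayed within their interval or within 1.5 times. The cause of each change was not tested. Shares of cells with a UMI depend on depth, and genes under 20 CPM did not enter the main counts.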
